A study of Xenopus laevis with 12 samples.

Results

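The genes described here encode enzymes and remodellers that modify chromatin, and were followed in retinal ganglion cells of the frog Xenopus laevis whose optic nerve had been crushed. Members were chosen by a rule on symbols, set with earlier results of these data known. It took histone deacetylases (hdac), sirtuins (sirt), lysine demethylases (kdm), lysine acetyltransferases (kat) and lysine methyltransferases (kmt, setd, ezh1 and ezh2). It also took DNA methyltransferases (dnmt), tet enzymes and arginine methyltransferases (prmt). Subunits of SWI/SNF and related remodellers (smarc), arid genes (arid1 to arid5) and chd remodellers completed the set. The arid genes are not all subunits of remodellers. The rule found 123 of 45099 gene models, which carry 71 distinct gene names: 50 names have 2 models, 20 have 1 model and 1 has more. Xenopus laevis is an allotetraploid, and most pairs are the .L and .S copies left by its ancestral genome duplication. The name of 25 models ends in "-like", meaning that the annotation names them by resemblance.

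Chromatin enzymes set or remove chemical marks on histone tails and on DNA, or move nucleosomes along DNA. Deacetylases and the Polycomb enzymes Ezh1 and Ezh2, which methylate lysine 27 of histone H3, are mostly associated with silent genes. Acetyltransferases, KMT2 methyltransferases and SWI/SNF remodellers are mostly associated with active ones. In vertebrate neurons these enzymes are studied as regulators of the genes that injured axons need for regrowth, and retinal ganglion cells, whose axons form the optic nerve, regrow them in frogs.

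Ribosome-bound RNA was recovered with antibodies against EGFP (TRAP) from retinas of adult transgenic frogs over 6 months old, stripped of lens and pigment epithelium. All frogs, operated or not, carried tg(islet2b:EGFP-RPL10a), a tagged large-subunit ribosomal protein under an islet2b promoter described by the submitters as specific to ganglion cells, and were F1 offspring of single female founders. The TRAP groups were the right eye after optic nerve crush at days 1, 3, 7 and 11, and as uncrushed controls the untreated left (contralateral) eye of the same frogs at the same days. Further controls were the right and left eye of sham-operated frogs at day 1 and eyes of naive, unoperated frogs. One library of total retina RNA completed the 12. One library was made for each condition from 3 pooled biological replicates, so no p-value measures the spread between replicate pools of a condition. The spread used by the tests includes differences between conditions. In the test over all 4 days these are changes of the crush effect between days. In the late test they are differences between days 7 and 11 and between the kinds of uncrushed eye. The sample labels put the crush on the right, while the design text once says left, and the labels were used.

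Libraries held 16820509 to 63299958 counts. The members took 0.367% of counts in crush day 11, the lowest share, and 0.498% in total retina, the highest. Levels below are TMM-scaled CPM, counts scaled to library size under the assumption that most genes do not differ. The TMM factors of crush days 7 and 11 were 0.851 and 0.815, against 0.989 to 1.12 in the other libraries. Without these factors the log2 fold change of the median gene between crush at days 7 and 11 and uncrushed eyes moved by -0.31, so every change is relative to the bulk of genes.

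The labelled cell type was checked with marker genes. The 23 ganglion cell marker models summed to 17006 to 18165 CPM in the 7 uncrushed TRAP libraries, against 1797 CPM in total retina. The 17 photoreceptor marker models summed to 1579 to 2017 CPM in uncrushed TRAP, against 28445 CPM in total retina. The ganglion cell sum was 16739, 11770, 8956 and 13789 CPM in crush days 1, 3, 7 and 11, so it was below the uncrushed range at every day. In bulk RNA, fewer cells of a type and less RNA per cell cannot be told apart.

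In uncrushed ganglion cells the most abundant members, compared by TPM (transcript abundance corrected for gene length), were one Polycomb enzyme and one class I deacetylase. ezh1.L had a median of 126 TPM over the 7 uncrushed TRAP libraries (115 to 133). hdac2.L had a median of 125 TPM (116 to 142) and overlapped ezh1.L. Next were hdac2.S with a median of 97.3 TPM and sirt5.L with 93.9 TPM. Sirt5 is a sirtuin of mitochondria, so not every member acts on chromatin. They were followed by smarcb1.S (66.4 TPM), hdac1.S (62.5 TPM), sirt5.1 (61.0 TPM) and smarcb1.L (57.2 TPM), Smarcb1 being a core SWI/SNF subunit and Hdac1 the close relative of Hdac2. The most abundant member of the other families was chd3.1 at 53.0 TPM, setd6.L at 31.0, arid5b-like.1.L at 30.0, kmt2e-like.S at 29.3, kat2a.S at 28.6, kdm1a-like.S at 25.8, prmt5.L at 23.7, dnmt1.L at 10.9 and tet2.L at 2.00 TPM. The DNA-oxidising tet family was thus the scarcest, with 4.02 TPM summed over its 4 models.

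Late after crush, at days 7 and 11, the members divided into a group that was higher and a group that was lower than in uncrushed ganglion cells. The 2 late crush libraries were compared with the 7 uncrushed TRAP libraries by edgeR's quasi-likelihood test. With adjusted p under 0.05 called, 39 of 122 tested members (32%) were higher and 26 (21.3%) were lower, against 24.8% higher and 23.8% lower among all 28631 genes tested. The share called in either direction was 53.3% of members and 48.5% of all genes, so a large part of the transcriptome moved and the members' share was near this background. The median log2 fold change was 0.06 over the members and -0.05 over all genes. The split between directions depended on scaling: with total counts, 29 members (23.8%) were higher and 45 (36.9%) lower, against 17.6% and 32% of all genes. The counts given per family below are to be read against these shares of all genes, and no family was tested as a set. Among the 65 called members the difference exceeded 2-fold upward in 24 and downward in 12. In 62 of the 65, both late libraries lay outside the whole range of the uncrushed libraries. The 65 were called from these same libraries, which favours such a separation. The counts over 2-fold and outside the range were not made over all genes, so they have no background here. The member not tested was setd7.S, which had almost no counts.

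Among the Polycomb enzymes, ezh1.L was lower and both ezh2 copies were higher after crush. The other ezh1 copy, ezh1.S, was not called in the late comparison (-0.22, adjusted p = 0.256). Ezh1 and Ezh2 are alternative catalytic subunits of Polycomb repressive complex 2, and in mammals Ezh2 is typical of dividing cells and Ezh1 of resting ones. ezh1.L had 364, 204, 52.1 and 40.4 CPM in crush days 1, 3, 7 and 11, against a lowest of 317, a median of 354 and a highest of 364 CPM in the uncrushed libraries. Its day 1 value was at the upper end of the uncrushed values and its later values were below all of them, 7.56-fold in the late comparison (log2 fold change -2.92 ± 0.11, SE, adjusted p = 1.89e-15). ezh2.L had 5.11, 14.5, 23.5 and 49.9 CPM in crush days 1 to 11, against 3.60 to 6.38 CPM (median 5.41) in the uncrushed libraries. From day 3 its values lay above every uncrushed library, with a late log2 fold change of 2.85 ± 0.23 (adjusted p = 1.51e-09). The second copy, ezh2.S, was also higher, at 13.7 and 16.7 CPM in crush days 7 and 11, against 1.43 to 3.90 CPM in uncrushed eyes (2.45 ± 0.28, adjusted p = 8.45e-08). At day 11 ezh2.L thus had a higher CPM than ezh1.L, while in every uncrushed library ezh1.L was far above ezh2.L. CPM is not corrected for length, but the same order held in TPM. At crush day 11 ezh2.L had 23.5 TPM and ezh1.L 9.81 TPM. In the uncrushed libraries ezh1.L had 115 to 133 TPM and ezh2.L 2.43 to 4.53 TPM. The reversal was seen in the .L copies only: at crush day 11 ezh1.S had 26.1 CPM and ezh2.S 16.7 CPM.

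**Figure D1:**
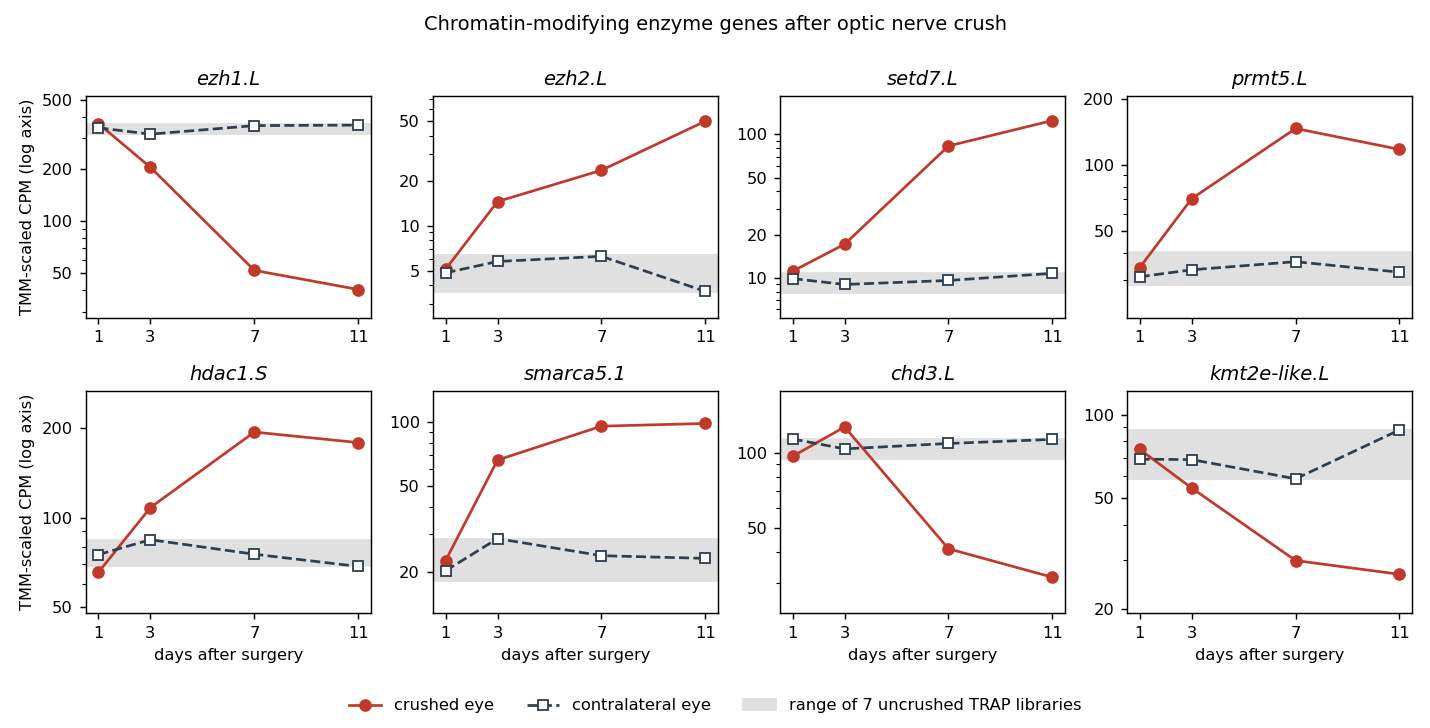
Levels of 8 members in TMM-scaled CPM (log axis) in the crush (filled circles) and contralateral (open squares) libraries against days after surgery, each point 1 library, with a grey band for the range of the 7 uncrushed TRAP libraries. ezh1.L is at 40.4 CPM in crush day 11, below all uncrushed libraries (317 to 364 CPM), while setd7.L is at 125 CPM, above all of them (7.85 to 10.7 CPM).

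setd7.L showed the highest late fold change of all members. Setd7 adds a single methyl group to lysine 4 of histone H3 and to lysines of other proteins. It had 11.1, 17.1, 83.1 and 125 CPM in crush days 1, 3, 7 and 11, against 7.85 to 10.7 CPM (median 9.12) in the uncrushed libraries. Each crush value was above every uncrushed one, and the late difference was 11.3-fold (3.50 ± 0.14, adjusted p = 2.25e-15). Among the 13 tested models of the SETD family, 5 were higher and none lower in the late comparison, although with total counts 4 were higher and 2 lower. setdb2.S, of the family that methylates lysine 9 of histone H3, had 8.91 and 8.97 CPM in crush days 7 and 11, against 1.80 to 2.73 CPM in uncrushed eyes (2.00 ± 0.27, adjusted p = 1.01e-06). At days 1 and 3 it was at 2.61 and 2.15 CPM, within the uncrushed range.

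Members of the KMT2 family were lower or not past the threshold. Of 6 KMT models, 4 were lower and none higher, also with total counts, and 2 of these 4 calls were lost without crush day 11 (kmt2a.1, -0.31, adjusted p = 0.261, and kmt2c.S, -0.20, adjusted p = 0.440). kmt2e-like.L, named for the SET-domain protein also called MLL5, had 74.9, 54.4, 29.8 and 26.6 CPM in crush days 1 to 11, against 58.7 to 88.0 CPM in uncrushed eyes. Its day 1 value was inside the uncrushed range and the later ones were below it (-1.34 ± 0.14, adjusted p = 2.94e-08). The .S copy was also lower (-0.78 ± 0.12, adjusted p = 7.39e-06).

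The arginine methyltransferases divided by gene. Prmt5, which makes symmetric dimethylarginine on histones and splicing proteins, was higher in both copies. prmt5.L had 34.3, 70.5, 147 and 118 CPM in crush days 1, 3, 7 and 11, against 28.6 to 40.3 CPM in uncrushed eyes, which leaves day 1 within the uncrushed range and days 3 to 11 above it. Its late log2 fold change was 1.96 ± 0.12 (adjusted p = 1.41e-12), and that of prmt5.S was 1.72 ± 0.15 (adjusted p = 1.55e-09). prmt7.L, a monomethylating enzyme, had 3.56, 8.45, 13.9 and 6.80 CPM in crush days 1 to 11, against 1.21 to 3.32 CPM in uncrushed eyes (2.04 ± 0.32, adjusted p = 1.01e-05). prmt8.S, an enzyme that in mammals is found mainly in brain and at the plasma membrane, was lower, with 10.3, 5.95, 4.09 and 3.81 CPM in crush days 1 to 11 against 7.74 to 12.4 CPM in uncrushed eyes (-1.32 ± 0.24, adjusted p = 6.83e-05). Of the 7 PRMT models, 3 were higher and 1 lower, with either scaling.

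Among the histone deacetylases, both copies of hdac1 were higher and neither copy of hdac2 was. Both are class I enzymes and catalytic subunits of the same corepressor complexes. hdac1.S had 65.6, 108, 194 and 179 CPM in crush days 1, 3, 7 and 11, against 68.6 to 84.4 CPM in uncrushed eyes, below that range at day 1 and above it from day 3. Both hdac1 copies were higher late (hdac1.L 1.75 ± 0.11, adjusted p = 4.65e-12, and hdac1.S 1.28 ± 0.09, adjusted p = 7.47e-11). hdac2.L had 158 and 148 CPM in crush days 7 and 11, against 133 to 158 CPM in uncrushed eyes, and was not called. hdac2.S was lower, at 55.9 and 41.8 CPM in crush days 7 and 11 against 66.2 to 86.2 CPM in uncrushed eyes (-0.58 ± 0.13, adjusted p = 5.3e-04). hdac10.L, a relative that in mammals deacetylates polyamines, had 7.51, 7.64, 18.2 and 18.7 CPM in crush days 1 to 11, against 3.84 to 6.11 CPM in uncrushed eyes (1.87 ± 0.20, adjusted p = 4.93e-08). The class IIa enzyme gene hdac9.L had 44.8, 50.6, 20.4 and 17.9 CPM in crush days 1 to 11, against 39.4 to 63.6 CPM in uncrushed eyes. It was lower late (-1.35 ± 0.16, adjusted p = 1.5e-07). With crush day 3, which was within the uncrushed range, added to the late group, the call was lost (-0.74, adjusted p = 0.0544). The other copy, hdac9.S, was not called in the late comparison (-0.30, adjusted p = 0.135).

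In total 5 of 15 HDAC models were higher and 3 lower, but with total counts 4 were higher and 7 lower. Of all genes 24.8% were higher and 23.8% lower, and 17.6% and 32% with total counts. Without crush day 11 the calls of hdac3.S (0.37, adjusted p = 0.096), hdac7.L (0.93, adjusted p = 0.0766) and hdac8.L (-0.33, adjusted p = 0.16) were lost. The sirtuins had 1 higher and 4 lower of 10 models, and 0 higher and 6 lower with total counts. sirt5.L, the most abundant of them, had 67.3, 42.5, 43.6 and 48.3 CPM in crush days 1 to 11, against 68.9 to 82.1 CPM in uncrushed eyes, below that range at every day (late -0.71 ± 0.11, adjusted p = 9.96e-06).

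The acetyltransferase kat2b.S (PCAF) had 6.84, 2.46, 1.69 and 1.69 CPM in crush days 1, 3, 7 and 11, against 5.18 to 7.08 CPM in uncrushed eyes. It was within the uncrushed range at day 1 and below it afterwards (-1.85 ± 0.29, adjusted p = 1.09e-05). The KAT family had 1 higher and 1 lower of 7 models, and 0 higher and 2 lower with total counts. The 1 higher, kat2a.S (0.38 ± 0.12, adjusted p = 0.0117), was not past the threshold without crush day 7 (0.25, adjusted p = 0.200).

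Among the demethylases, both copies of kdm1a-like and of kdm5b were higher, and both copies of kdm6a were lower. kdm1a-like.S, named for LSD1, the lysine 4 demethylase of the CoREST corepressor, had 40.9, 55.7, 100 and 108 CPM in crush days 1, 3, 7 and 11, against 33.4 to 45.4 CPM in uncrushed eyes. Its late log2 fold change was 1.41 ± 0.11 (adjusted p = 2.48e-10), and kdm1a-like.L was also higher (0.92 ± 0.17, adjusted p = 6.4e-05). kdm5b.L, another lysine 4 demethylase, was higher by 0.99 ± 0.15 (adjusted p = 4.73e-06), and kdm5b.S by 0.50 ± 0.12 (adjusted p = 0.00161), a call lost without crush day 7 (0.29, adjusted p = 0.135) and with total counts (0.20, adjusted p = 0.202). kdm6a.L, the lysine 27 demethylase also called UTX, had 12.1, 7.91, 5.59 and 4.05 CPM in crush days 1 to 11, against 9.01 to 16.1 CPM in uncrushed eyes. Day 1 was inside the uncrushed range and the later days below it, and both copies were lower (kdm6a.L -1.36 ± 0.25, adjusted p = 8.26e-05, and kdm6a.S -1.04 ± 0.19, adjusted p = 7.08e-05). Of the 20 KDM models, 6 were higher and 2 lower, which turned to 4 higher and 6 lower with total counts.

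The enzymes of DNA methylation were few. dnmt1.S, a copy of the maintenance methyltransferase gene, had 18.8, 39.0, 56.8 and 34.1 CPM in crush days 1, 3, 7 and 11, against 16.2 to 25.5 CPM in uncrushed eyes (1.06 ± 0.17, adjusted p = 1.26e-05). dnmt1.L did not pass the threshold and had 25.5 and 21.3 CPM in crush days 7 and 11, against 25.1 to 35.3 CPM in uncrushed eyes. Of the 4 tet models, whose products oxidise methylated cytosine, 3 were lower and none higher, with either scaling. tet3.S had 4.83, 5.23, 2.77 and 1.72 CPM in crush days 1 to 11, against 4.36 to 9.49 CPM in uncrushed eyes (-1.56 ± 0.34, adjusted p = 5.86e-04). tet2.L had 8.86 and 5.56 CPM in crush days 7 and 11, against 16.3 to 19.9 CPM in uncrushed eyes (-1.31 ± 0.20, adjusted p = 6.19e-06). At crush day 3 it had 18.8 CPM, inside the uncrushed range, and with that day added its call was lost (-0.73, adjusted p = 0.0585). The call of tet2.S was lost without crush day 11 (-0.63, adjusted p = 0.242).

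The SMARC family held the most models that were higher late. Of its 13 models, 8 were higher and 1 lower, with a median log2 fold change of 0.98. With total counts 7 were higher and 3 lower, with a median of 0.68. The shares of all genes were 24.8% higher and 23.8% lower, and 17.6% and 32% with total counts. smarca5.1, an ATPase of the ISWI remodellers, had 22.6, 66.3, 95.4 and 98.2 CPM in crush days 1, 3, 7 and 11, against 18.2 to 28.6 CPM in uncrushed eyes. Day 1 lay within the uncrushed range and the later days above it (2.05 ± 0.13, adjusted p = 4.52e-12). The core SWI/SNF subunit genes smarcb1 and smarcc1 were higher in both copies. smarcb1.L was higher by 1.26 ± 0.11 (adjusted p = 2.79e-09) and smarcb1.S by 1.10 ± 0.09 (adjusted p = 7.87e-10). smarcc1.L was higher by 0.98 ± 0.09 (adjusted p = 5.19e-09) and smarcc1.S by 1.25 ± 0.11 (adjusted p = 9.89e-10). Neither copy of smarcc2 passed the threshold (smarcc2.L -0.0003, adjusted p = 0.998, and smarcc2.S -0.24, adjusted p = 0.31). Both copies of smarca2-like also did not pass it (smarca2-like.L 0.08, adjusted p = 0.537, and its other copy 0.20, adjusted p = 0.225). The SWI/SNF subunit genes were thus not all higher.

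Among CHD remodellers, both chd3 models were lower, and chd5-like.2.L and both chd7-like models were higher. chd3.L, which encodes an ATPase of the NuRD deacetylase complex, had 96.7, 127, 41.1 and 31.6 CPM in crush days 1, 3, 7 and 11, against 94.4 to 114 CPM in uncrushed eyes. It was within that range at day 1, above it at day 3 and below it late (-1.55 ± 0.12, adjusted p = 2.31e-10). chd3.1 followed the same order, with 159, 205, 79.3 and 71.6 CPM in crush days 1 to 11 against 148 to 180 CPM in uncrushed eyes (late -1.16 ± 0.10, adjusted p = 1.51e-09). With crush day 3 added to the late group, the calls of chd3.L (-0.70, adjusted p = 0.130) and chd3.1 (-0.53, adjusted p = 0.141) were lost. The relative chd5-like.2.L was higher, at 59.7 and 61.5 CPM in crush days 7 and 11 against 24.3 to 32.8 CPM in uncrushed eyes (1.19 ± 0.12, adjusted p = 3.01e-08). Its more abundant copy, chd5-like.2.S, had 77.3 to 104 CPM in uncrushed eyes and was not called (0.18, adjusted p = 0.212). chd7-like.L and chd7-like.S were higher by 1.56 ± 0.16 (adjusted p = 2.55e-08) and 1.18 ± 0.11 (adjusted p = 3.69e-09). The CHD family had 5 higher and 4 lower of 12 models, and 3 higher and 4 lower with total counts. Of the 9 ARID models 2 were higher and 2 lower (1 and 4 with total counts). arid5b-like.1.L, named for a DNA-binding partner of a lysine 9 demethylase, had 71.3, 191, 255 and 184 CPM in crush days 1 to 11 against 59.7 to 72.5 CPM in uncrushed eyes (1.73 ± 0.11, adjusted p = 2.62e-12). arid5b-like.1.S was also higher (0.49 ± 0.12, adjusted p = 0.00106), a call lost with total counts (0.19, adjusted p = 0.21). The scarce arid5b-like.2.L was lower late (-0.98 ± 0.36, adjusted p = 0.0293), at 1.89 and 1.48 CPM against 2.45 to 4.35 CPM. With crush day 3 (7.33 CPM) added, its call was lost (0.06, adjusted p = 0.936).

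**Figure D2:**
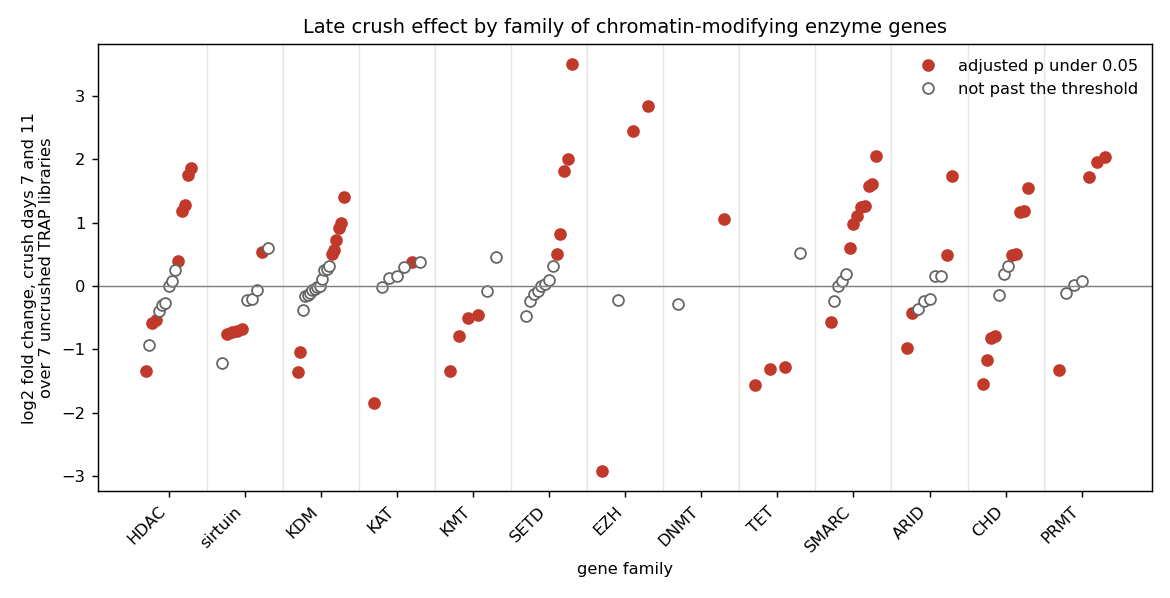
Late log2 fold change (crush days 7 and 11 over the 7 uncrushed TRAP libraries, TMM scaling) of every tested member by family, each point 1 gene model, coloured by whether it passed the threshold. SMARC models lie mostly above 0 (median 0.98), TET models mostly below it (median -1.29), and the EZH family spans -2.92 to 2.85.

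Marker genes of other cells were measured in the same libraries. The counts of called marker models use TMM scaling, and no list was tested as a set. They are to be read against 24.8% higher and 23.8% lower among all genes. In crush days 7 and 11 the cycling cell markers summed to 77.9 and 77.0 CPM, against 45.7 to 61.7 CPM in uncrushed eyes. Of their 24 tested models 3 were higher and none lower. Within this list, the 10 models of the mitotic genes aurkb, ccna2, ccnb1, ccnb2 and cdk1 did not exceed 1.18 CPM in any TRAP library. The sum was thus carried mostly by the other models of the list, which has 27 models in all. The mitotic genes were picked from the list and do not stand for it. Leukocyte and microglia markers summed to 6.13 and 5.80 CPM in crush days 7 and 11, against 5.74 to 8.55 CPM in uncrushed eyes, with none of 5 tested models called. Of the 12 genes on this list only 4 had models, among them ptprc, spi1 and lcp1, which were at most 0.80 CPM in a TRAP library. The sum of this list thus came at least in part from the remaining gene. Photoreceptor markers summed to 1276 and 1341 CPM late, against 1579 to 2017 CPM in uncrushed eyes, with 12 of 17 models lower.

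The other marker lists also held called models, to be read against the same shares of all genes. Of the 22 tested ganglion cell models 17 were lower and 3 higher. Müller glia and astrocyte markers had 5 higher and 2 lower of 11. Bipolar markers had 3 lower of 8, amacrine and horizontal markers 6 lower of 14, and endothelial and blood markers 1 lower of 6, with none higher in these lists. Oligodendrocyte and Schwann cell markers had 2 higher and 2 lower of 8, and their sum was 236 and 189 CPM in crush days 7 and 11, against 592 to 749 CPM in uncrushed eyes. The part of these marker changes in the members' changes was not tested.

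Genes that act with the members but have other symbols were listed by complex. Of 222 tested models 66 (29.7%) were higher and 55 (24.8%) lower in the late comparison, near the 24.8% and 23.8% of all genes, with a median log2 fold change of 0.08. With total counts the split turned, to 37 higher and 86 lower of the 222, while 17.6% of all genes were higher and 32% lower. The total counts given per list below are to be read against these shares of all genes. Polycomb partners had 14 higher and 4 lower of 31 (8 and 8 with total counts), and demethylases of other symbols 6 and 0 of 10 (3 and 1 with total counts). Heterochromatin proteins and histone chaperones had 10 higher and 4 lower of 20 (10 and 5 with total counts). Methyltransferases of other symbols had 1 higher and 14 lower of 32 (0 and 18 with total counts). SWI/SNF and other remodeller partners had 13 and 10 of 46, which turned to 6 and 18 with total counts. COMPASS partners had 4 and 1 of 14, which turned to 1 and 4, and bromodomain BET proteins 1 and 0 of 3, which turned to 0 and 1. Deacetylase complex partners had 8 and 9 of 30 (5 and 12 with total counts), acetyltransferases and partners 8 and 10 of 30 (3 and 15), and DNA methylation partners 1 and 3 of 6 (1 and 4).

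The partner genes of highest and lowest late fold change differed widely in level. npm3.L, a histone chaperone of the nucleoplasmin family, had 3.43, 12.4, 36.0 and 22.5 CPM in crush days 1, 3, 7 and 11, against 3.12 to 4.59 CPM in uncrushed eyes (2.84 ± 0.20, adjusted p = 3.81e-11). mina-like.L, named for a ribosomal oxygenase, had 9.49 and 11.1 CPM in crush days 7 and 11, against 0 to 1.92 CPM in uncrushed eyes (3.25 ± 0.54, adjusted p = 1.22e-04). bcl11b.L, a zinc-finger partner of SWI/SNF in mammalian neurons, had 14.4, 13.1, 2.28 and 0.635 CPM in crush days 1 to 11, against 13.4 to 20.1 CPM in uncrushed eyes (-3.51 ± 0.34, adjusted p = 4.54e-08). Its late values lay far below every uncrushed library. The other genes were near the detection limit: hmga2.1.S had 0.910 and 0.609 CPM late against at most 0.0572 CPM in uncrushed eyes, prdm16.S had 0.0557 and 0 CPM against 0.122 to 1.07 CPM, and prdm6.L had 0.0371 and 0.423 CPM against 0.509 to 3.03 CPM.

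Whether the crush effect changed over time was tested with the slope of the crush to contralateral log2 ratio on log2 of the day, in log2 units per doubling of the day. Of 122 members, 9 (7.38%) had a rising slope and 5 (4.1%) a falling one, against 5.83% rising and 6.85% falling among 26004 genes. With total counts the majority turned, to 7 rising and 11 falling members, against 3.39% rising and 9.98% falling among all genes. In all, with TMM scaling, 11.5% of members and 12.7% of all genes passed, so this share too was near the background. The contralateral libraries here are among the controls of the late comparison, and the crush libraries of days 7 and 11 are in both. The highest slopes were those of setd7.L (1.03 ± 0.14, adjusted p = 0.00435) and ezh2.L (0.94 ± 0.19, adjusted p = 0.0124). Next were hdac1.L (0.61 ± 0.12, adjusted p = 0.0126), smarca5.1 (0.57 ± 0.11, adjusted p = 0.0118), prmt5.S (0.55 ± 0.13, adjusted p = 0.0201) and prmt5.L (0.54 ± 0.12, adjusted p = 0.0165). hdac1.S (0.49), smarcb1.S (0.44) and smarcc1.S (0.40) completed the rising members, and the calls of smarcb1.S and smarcc1.S were lost with total counts.

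The falling slopes were those of ezh1.L (-1.01 ± 0.14, adjusted p = 0.00423), kdm6a.L (-0.57, adjusted p = 0.0489), kmt2e-like.L (-0.51, adjusted p = 0.02), kdm6a.S (-0.49, adjusted p = 0.0398) and kdm7a.L (-0.46, adjusted p = 0.0314). kdm7a.L, a demethylase of lysines 9 and 27, was the 1 slope-called member without a late call: it had 82.9, 45.7, 32.9 and 31.1 CPM in crush days 1, 3, 7 and 11, against 26.0 to 46.2 CPM in uncrushed eyes, and so stood out at day 1 only. With 2 residual degrees of freedom many slope calls were lost when a day was left out. Of the 14 calls, 6, 14, 5 and 3 held without day 1, 3, 7 or 11. Adjusted p of the lost calls ran from 0.0562 to 0.424 without day 1, from 0.0520 to 0.175 without day 7 and from 0.0503 to 0.353 without day 11. ezh1.L and setd7.L kept their call in each case.

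Single days showed when members moved apart (1 library against 1, no test). At day 1 after crush 1 of 118 members was over 2-fold apart between crushed and contralateral eye (0.847%), against 2.08% of all genes: kdm7a.L, with a log2 ratio of 1.27. At day 3 it was 18 of 112 members (16.1%), against 13.7% of all genes, 15 of them higher (13.4%, against 8.18% of all genes) and 3 lower (2.68%, against 5.49%). The median log2 ratio at day 3 was 0.31 over the members and -0.01 over all genes. The highest was smarcd2.L, a SWI/SNF subunit gene, at 1.73, and the lowest setd9.L at -1.52. At day 7 it was 37 of 117 members (31.6%), against 35.6% of all genes, 28 higher (23.9%, against 20.7%) and 9 lower (7.69%, against 14.9%), from ezh1.L at -2.77 to setd7.L at 3.11. At day 11 it was 41 of 117 members (35%), against 38.9% of all genes, 22 higher (18.8%, against 19.6%) and 19 lower (16.2%, against 19.3%), from ezh1.L at -3.14 to ezh2.L at 3.76. Between the sham right and left eye none of 114 members was over 2-fold apart, against 1.36% of all genes, with log2 ratios of -0.82 to 0.82.

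Some members were high at day 3 alone, which the late comparison and the slope do not capture. Among them were hdac4.S and both hdac5 copies, named here after their values were seen. hdac4.S had 31.6, 55.8, 22.5 and 23.2 CPM in crush days 1, 3, 7 and 11, against 24.0 to 31.7 CPM in uncrushed eyes. hdac5.L had 18.9, 52.3, 18.7 and 14.2 CPM in crush days 1 to 11, against 12.2 to 30.1 CPM in uncrushed eyes. hdac5.S had 20.6, 40.9, 14.4 and 4.45 CPM in crush days 1 to 11, against 10.7 to 23.7 CPM in uncrushed eyes. Day 3 was above the whole uncrushed range in all 3, and their day 1 and day 7 values were not. hdac4.L was also above it at day 3 only (19.7 CPM, against 10.6 to 15.4 CPM in uncrushed eyes). These genes encode class IIa deacetylases, which shuttle between nucleus and cytoplasm in neurons. The class IIa genes hdac7 and hdac9 were not high at day 3: hdac9.L (50.6 CPM) and hdac9.S (31.4 CPM, against 26.8 to 41.4 CPM in uncrushed eyes) lay inside the uncrushed range, and hdac7.L (1.65 CPM, against 1.77 to 3.13 CPM) and hdac7.S (1.92 CPM, against 2.30 to 3.61 CPM) below it. The day 3 values come from 1 crush library. At this day 8.18% of all genes were over 2-fold higher in the crushed than in the contralateral eye. That is a different measure, which hdac5.S (log2 ratio 0.79) and hdac4.L (0.36) did not reach. How many members, or how many of all genes, were high at day 3 alone was not counted, so these examples have no background.

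A crush effect shared by all 4 days was called for 0 of 122 members at adjusted p under 0.05 by edgeR, with day as a block, against 0.0385% of all genes (10 of 26004). Changes of the effect between days count as spread in this test, so 0 calls do not mean that an effect was absent. At unadjusted p under 0.05 it was 25 members (20.5%), 21 higher and 4 lower, against 20.7% of all genes. With DESeq2, 15 members passed (12.3%), 14 higher and 1 lower, against 12% of all genes. The members of smallest p were prmt7.L (1.64 ± 0.39), hdac10.L (1.33 ± 0.34), smarca5.1 (1.36 ± 0.35) and setd4.L (1.09 ± 0.28), each with adjusted p = 0.223. The count of 15 was also reached by edgeR without day 1.

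The 2 copies of a gene were compared in the late comparison. Both copies were tested for 49 gene names. Both were called in the same direction for 17 (34.7%), against 34.0% of 6310 such pairs over all genes. The other names had 1 copy called (18, or 36.7%, against 35.2% of all pairs) or neither (14, or 28.6%, against 26.7%). None of the 49 was called in opposite directions, against 4.03% of all pairs. The members' shares were thus near those of all pairs. The pairs leave out arid5b-like.2.L, which was called lower while both arid5b-like.1 models were called higher. The log2 fold changes of the copies differed by a median of 0.38, against 0.62 over all pairs, and were over 1 apart in 9 names (18.4%), against 32.8% of all pairs. Where copies are nearly identical, the counting can split their reads either way.

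The copies that lay farthest apart were those of ezh1, tet3, kat2b and smarca5, chosen for this difference and therefore given without a test. ezh1.S had 33.1, 39.7, 32.2 and 26.1 CPM in crush days 1, 3, 7 and 11, against 29.0 to 42.3 CPM in uncrushed eyes, with a late log2 fold change of -0.22 against -2.92 for ezh1.L. At day 11 the scarcer copy thus had 26.1 CPM and the one that was dominant in uncrushed eyes 40.4 CPM. kat2b.L was at 0.13 ± 0.63 and kat2b.S at -1.85 ± 0.29, tet3.L at 0.51 ± 0.55 and tet3.S at -1.56 ± 0.34. The .L copies of these genes were low in uncrushed eyes, at 0.223 to 1.66 CPM for kat2b.L and 0.233 to 2.45 CPM for tet3.L. Their fold changes are therefore imprecise. smarca5.1 was at 2.05 and smarca5.S at 0.60.

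**Figure D3:**
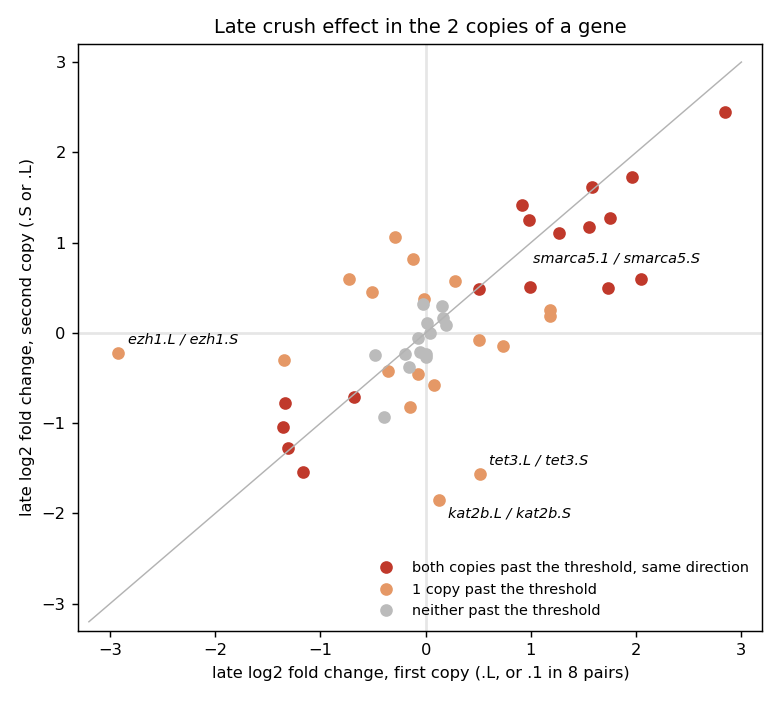
Late log2 fold change of the second copy against that of the first copy for the 49 gene names with both copies tested, each point 1 name, with the line of equal change. No point with both copies called lies in opposite quadrants, and ezh1 (-2.92 and -0.22) lies farthest from the line.

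Members were set against the whole retina by the log2 ratio of each of the 7 uncrushed TRAP libraries to the total retina library (1 library, no test). Of 118 members with 200 counts or more, 7 (5.93%) exceeded total retina by over 2-fold in 7 of 7 TRAP libraries, against 12.1% of all genes. Another 13 (11%) lay over 2-fold below it in 7 of 7, against 13.5% of all genes. The median log2 ratio was -0.13 for members and 0.11 for all genes. The highest were arid5b-like.1.S (median 2.13, from 1.97 to 2.2), arid5b-like.1.L (1.85, from 1.65 to 1.93), setd6.L (1.78, from 1.39 to 2.00), sirt5.L (1.66, from 1.5 to 1.75), hdac2.S (1.40, from 1.31 to 1.69) and hdac2.L (1.34, from 1.23 to 1.47). hdac2.L had 133 to 158 CPM in uncrushed TRAP, against 56.8 CPM in total retina. Setd6 methylates a subunit of the transcription factor NF-kappaB in mammals.

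The lowest ratios were those of kdm7a.L (median -3.84, from -4.32 to -3.49), hdac7.L (-2.99, from -3.66 to -2.86), kdm7a.S (-2.94, from -3.14 to -2.75), kmt2a.L (-2.89, from -3.48 to -2.28), setd1b.S (-2.87, from -3.79 to -2.22) and setd5-like.L (-2.27, from -3.09 to -1.40). kdm7a.L had 26.0 to 46.2 CPM in uncrushed TRAP, against 518 CPM in total retina. The photoreceptor marker sum showed the same order, and its part in these ratios was not tested. ezh1.L had 317 to 364 CPM in uncrushed TRAP against 185 CPM in total retina, whereas ezh2.L had 3.60 to 6.38 CPM in uncrushed TRAP against 20.9 CPM in total retina. At crush day 11 both had left that pattern: ezh1.L at 40.4 CPM was below total retina and ezh2.L at 49.9 CPM above it.

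**Figure D4:**
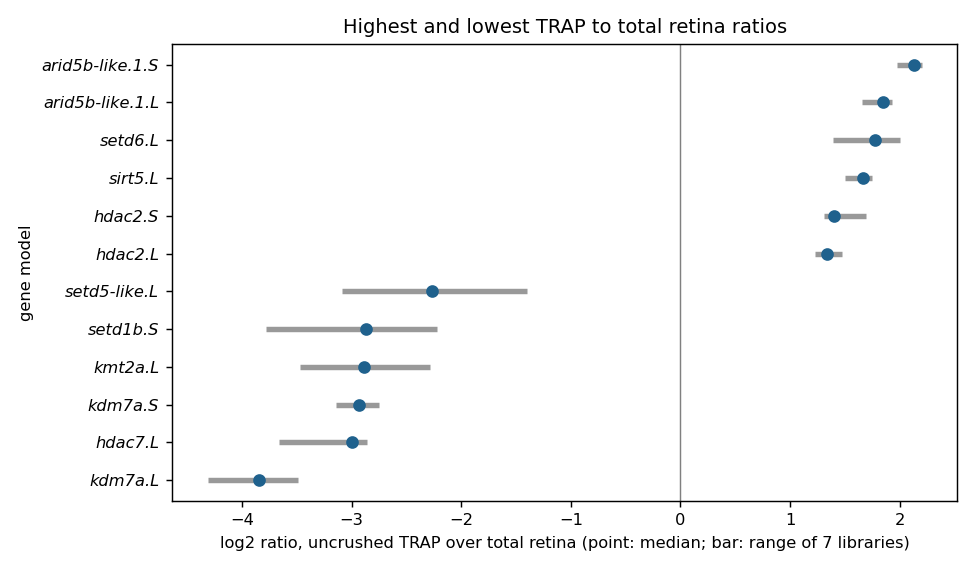
Log2 ratio of the uncrushed TRAP libraries over the total retina library for the members of highest and lowest median ratio, with a point at the median and a bar over the range of the 7 libraries. Both arid5b-like.1 and both hdac2 models, sirt5.L and setd6.L lie above 1 in all 7 libraries, and kdm7a.L lies lowest, from -4.32 to -3.49.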

How the data were processed

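RNA of 12 libraries was sequenced. The submitters' processing notes name RSEM 1.2.21, Bowtie2 2.2.5 and Trimmomatic 0.33. The genome build is not given in the sources used here, nor is the annotation. Per the file headers, the authors deposited an expected count (estimated by RSEM) and a TPM value per gene model. Expected counts were rounded. TPM served for levels. Of the members, 83 match symbols in RefSeq's gene table.

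edgeR 4.0.16 (R 4.3.3) was run over all genes passing filterByExpr, with TMM scaling, robust quasi-likelihood F tests, Benjamini-Hochberg adjustment over all genes and a threshold of 0.05. The 4-day and slope tests used 4 crush and 4 contralateral libraries with day as a block, since both eyes came from the same frogs per the labels' protocols. Across genes, the deviations from the eye's mean of both libraries of a day correlated at 0.0960, 0.0559, 0.0658 and 0.0392 (days 1, 3, 7 and 11). The late test set crush days 7 and 11 against the 7 uncrushed TRAP libraries, without a block, treating the 2 days as 1 group. Errors are standard errors. Ratios of single libraries used a prior count of 2 and a fold of 2. Tests were run on simulated counts to check the direction and size of planted changes. The simulation used the same spread for every gene and few changed genes. It does not give error rates for these data. Each condition is 1 pooled library, which limits precision, and values near 0 CPM rest on few counts.

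Named members are the 8 highest and 8 lowest called values of a test with 100 counts or more, the smallest p-values where fewer than 4 pass, the 6 highest and lowest TRAP ratios with 200 counts or more, the 8 most abundant members, the top of each family, and the 4 pairs of copies farthest apart. For partner lists they are the 3 highest and 3 lowest called values. Other members were named after their values were seen. The members and lists were chosen with earlier results of these data known. Alternatives were DESeq2 1.42.0, total counts, no filter, summed .L and .S copies, no block, another prior count and leaving out libraries.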

Additional observations from a re-analysis of the deposited data

Results flagged for a closer look

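The crush effect of 14 members differed between days, by the test of the slope of the crush to contralateral ratio on log2 of the day. This was 11.5% of members, against 12.7% of all genes, and so near the background. Of the 14 calls, 6, 14, 5 and 3 held without day 1, 3, 7 or 11. Slopes, in log2 units per doubling of the day, were 1.03 for setd7.L, 0.945 for ezh2.L, 0.614 for hdac1.L, 0.574 for smarca5.1, 0.554 for prmt5.S, 0.537 for prmt5.L, 0.490 for hdac1.S, 0.436 for smarcb1.S and 0.398 for smarcc1.S. They were -1.01 for ezh1.L, -0.574 for kdm6a.L, -0.514 for kmt2e-like.L, -0.495 for kdm6a.S and -0.460 for kdm7a.L.

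In 2 of 92 tests of named members for a library far from the others of its group, 1 library stood apart, where chance flags about 1 in 20 groups. These flags were no more frequent than that rate. The 4 crush libraries are 4 different days, so a gene that changes with the day can be flagged. Among the 4 crush libraries, kat2b.S stood apart at day 1 with 6.84 CPM, a value within the range of the uncrushed libraries. sirt5.1 stood apart at crush day 11 with 29.5 CPM, below the other crush libraries.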

How the results depend on the processing

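The late calls moved least. Over the alternatives that kept copies apart 49 to 74 members and 10174 to 14339 genes were called, against 65 and 13899. None of the 65 members was called in the opposite direction. With copies summed, which leaves 81 members to test, 46 were called. Of the 65, 55 were kept with total counts, 57 without crush day 7, 57 without crush day 11, 49 with crush day 3 added and 57 in the comparison of days 7 and 11 with day as a replicate block (60 members called). Leaving out 1 late crush library leaves 1 crush sample, assumed to vary like the others. The 16 members with the highest and lowest late values were followed in the alternatives that kept copies apart. There each kept its call, except chd3.L and hdac9.L with crush day 3 added. With copies summed they were not followed, apart from smarca5.1, whose model stays separate in that setting.

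The 4-day comparison depended on the tool and on day 1. It called 10 genes, against 3127 with DESeq2, 6 with total counts, 25 without a filter and 0 without the replicate block on day. Leaving out 1 day gave 0 to 2678 genes, the highest without day 1, and 0 to 15 members. DESeq2 called 15 members, and the other alternatives 0. The slope comparison called 3296 genes and 14 members, and leaving out 1 day gave 1233 to 5163 genes and 3 to 25 members. The direction of the members named by a test or by their TRAP ratio held in all alternatives run for them. Members named only for their level, as the other copy of a gene or after their values were seen were not followed in this way. The causes of these differences were not tested. With 1 pooled library per condition, differences between frogs cannot be measured.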
